A study of Mus musculus with 18 samples.

Results

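The kainate receptor subunit genes Grik1, Grik2, Grik3, Grik4 and Grik5 were followed through the layers of mouse neocortex after electroporation with FOXP2 or GFP. They were taken by symbol, and all 5 were found once among the 54446 genes of the deposited count table. RNA was sequenced in 18 libraries from 6 CD-1 mice, an outbred stock, each giving 1 library of layers 5-6 (L5-6), 1 of layer 4 (L4) and 1 of layers 2-3 (L2-3), dissected from 300 µm sagittal slices of brains at postnatal day 7. Plasmids had been brought into the wall of the cerebral ventricle by in utero electroporation at E14.5: human FOXP2 cDNA with Gfp in 2 mice (huFOXP2), mouse Foxp2 cDNA with Gfp in 1 mouse (moFoxp2), and an empty plasmid with Gfp, labelled GFP, in 3 mice. The huFOXP2 and moFoxp2 mice are together called FOXP2 mice. In the labels, GFP-positive cells belong to L4 and GFP-negative ones to L5-6 and L2-3, and they call L2-3 infragranular although it lies above L4. The sources used here do not give the promoter of the plasmids, the share of cells that took them up or the sex of the animals, and moFoxp2 rests on 1 mouse.

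Kainate receptors are glutamate-gated ion channels built from 4 subunits. Grik1, Grik2 and Grik3 encode GluK1, GluK2 and GluK3, which bind glutamate with lower affinity and can form channels on their own. Grik4 and Grik5 encode the high-affinity subunits GluK4 and GluK5, which need a GluK1, GluK2 or GluK3 partner to reach the cell surface and work. The auxiliary proteins NETO1 and NETO2 slow the closing of the channel. In cortex, kainate receptors act on both sides of synapses, modulating transmitter release and adding slow excitatory currents, and GluK1 is best known from interneurons.

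The 5 genes lie on separate chromosomes (mm10, GENCODE M21). Grik1 (ENSMUSG00000022935.16) lies at chr16:87895900-88290265 on the minus strand, Grik2 (ENSMUSG00000056073.16) at chr10:49094833-49788766 on the minus strand, Grik3 (ENSMUSG00000001985.9) at chr4:125490700-125714173 on the plus strand, Grik4 (ENSMUSG00000032017.14) at chr9:42518135-42944493 on the minus strand, and Grik5 (ENSMUSG00000003378.9) at chr7:25009849-25072346 on the minus strand. No annotated gene on the opposite strand overlapped any of them, and exons were shared only between Grik4 and Gm24420, a miscellaneous RNA, over 59 bases of the same strand. The promoter windows of Grik2, Grik3 and Grik4 are shown because each of these genes was higher in L5-6 than in both other layers in the results that follow. Each window holds 250 bases before and 50 after the annotated start in RefSeq (GRCm38.p6), read 5′ to 3′ on the gene's strand, at chr10:49788705-49789004 for Grik2, chr4:125490446-125490745 for Grik3 and chr9:42944322-42944621 for Grik4. Capitals mark the GC box GGGCGG, the core of the Sp1 motif, and its reverse complement CCGCCC.
Grik2: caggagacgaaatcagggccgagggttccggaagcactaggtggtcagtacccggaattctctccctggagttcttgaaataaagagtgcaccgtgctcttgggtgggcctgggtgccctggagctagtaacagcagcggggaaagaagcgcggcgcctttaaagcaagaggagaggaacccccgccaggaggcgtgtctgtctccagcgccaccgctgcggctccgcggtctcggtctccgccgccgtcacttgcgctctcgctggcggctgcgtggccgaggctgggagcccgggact
Grik3: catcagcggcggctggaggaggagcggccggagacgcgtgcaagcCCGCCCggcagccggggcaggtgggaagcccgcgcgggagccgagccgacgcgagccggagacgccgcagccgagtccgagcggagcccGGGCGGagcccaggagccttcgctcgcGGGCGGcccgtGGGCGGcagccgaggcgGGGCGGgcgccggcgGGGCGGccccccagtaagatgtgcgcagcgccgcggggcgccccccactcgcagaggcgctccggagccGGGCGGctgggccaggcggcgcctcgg
Grik4: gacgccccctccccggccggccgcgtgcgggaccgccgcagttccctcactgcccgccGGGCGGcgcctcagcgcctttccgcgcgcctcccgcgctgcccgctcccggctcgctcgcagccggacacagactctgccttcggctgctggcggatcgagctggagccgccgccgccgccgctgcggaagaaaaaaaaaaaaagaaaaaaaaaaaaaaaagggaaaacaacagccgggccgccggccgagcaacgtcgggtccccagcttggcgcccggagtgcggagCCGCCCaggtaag

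The Grik3 window had 7 GC boxes, the Grik4 window 2 and the Grik2 window 0, while 35.7% of 32851 RefSeq promoter windows of the same length held at least 1. GC content was 82.0% in the Grik3 window, 70.0% in Grik4 and 64.7% in Grik2, against a median of 52.7% over all windows. The CpG count was 50 in Grik3, 42 in Grik4 and 26 in Grik2, against a median of 7. The window of Grik5, whose RNA differed little between layers, held 2 GC boxes, a GC content of 72.0% and 10 CpG. On either strand, 0 matches to the forkhead motif TGTTTAC (in 3.65% of all windows), the reported FOXP2 motif TATTTAT (5.6%), the cyclic AMP response element TGACGTCA (1.79%), the E-box CACGTG (7.15%) or the TATA box TATAAA (13.6%) lay in these 4 windows. Grik1 had no window in the RefSeq set used, so its promoter was not examined.

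Library totals ranged from 10111149 to 23404528 counts, and the counts of a member in a library from 60 to 5765. Levels are given as CPM, the counts of a gene scaled to a common library size corrected by the TMM factor of the library. Foxp2 was counted on the mouse genome, so its level includes the RNA of the animal's own gene. How far reads of the human cDNA entered these counts was not examined. Foxp2 had 33.25 to 64.9 CPM in FOXP2 mice and 5.38 to 8.74 CPM in GFP mice in L4, a log2 fold of 2.75 ± 0.30 (SE, edgeR adjusted p = 0.0247). In L2-3, labelled GFP-negative, it had 20.2 to 52.3 CPM in FOXP2 mice and 1.77 to 6.53 CPM in GFP mice (2.78 ± 0.51, edgeR adjusted p = 0.0829). In L5-6, where Foxp2 is a known marker of deep neurons, it had 39.6 to 77.7 CPM in FOXP2 mice and 52.4 to 68.55 CPM in GFP mice (0.02 ± 0.23, edgeR adjusted p = 0.976). Layer 6 markers, a list that includes Foxp2, had a summed level of 713.1 to 1325 CPM in L5-6, 232.1 to 318.6 in L4 and 171.5 to 236.2 in L2-3. Layer 4 markers summed to 362.8 to 522.9 CPM in L4, and to at most 329.9 in L5-6 and 346.0 in L2-3. The layer 2-3 list did not set L2-3 apart from L4, with 1387 to 1780 CPM in L4 and 1166 to 1726 in L2-3. Meningeal markers reached 398.9 to 2105 CPM in L2-3, 23.8 to 90.7 in L4 and 30.6 to 47.1 in L5-6. The L5-6 library of GFP mouse 1 stood apart, with oligodendrocyte markers at 3143 CPM and 1106 to 1715 in the other L5-6 libraries. Other libraries of this mouse also differed from those of GFP mice 2 and 3. Neto1 had 15.3 CPM in its L2-3 library, against 34.5 and 36.1, and 27.5 CPM in its L4 library, against 58.9 and 54.9. Its L2-3 library also had the lowest meningeal sum of that layer, 398.9 CPM. Of the layer, meningeal, interneuron and oligodendrocyte markers, Aldh1a2 (meningeal) and Pvalb (interneuron) were at 0 in 1 library each, and no marker was at 0 in every library.

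Per length of RNA, Grik5 was the main kainate receptor transcript in every layer. Its mean level over the 6 mice was 49.2 ± 2.80 CPM per kilobase (SD, n = 6) in L5-6, 50.95 ± 2.84 in L4 and 44.3 ± 4.24 in L2-3, and in each layer its lowest library lay above the highest library of any other member. Grik3 came next, with 23.9 ± 3.42 CPM per kilobase in L5-6, 7.57 ± 1.55 in L4 and 3.92 ± 0.51 in L2-3. In L5-6 its range stood clear of Grik1 (3.37 ± 1.03), Grik4 (3.22 ± 0.50) and Grik2 (3.21 ± 0.25), whose ranges overlapped one another. In L4 the order went on with Grik1 (5.70 ± 1.30), which overlapped Grik3, then Grik2 (2.21 ± 0.38) and Grik4 (1.33 ± 0.26), with no overlap between Grik1 and Grik2 or between Grik2 and Grik4. In L2-3, Grik1 had 3.25 ± 1.09 CPM per kilobase, Grik2 1.74 ± 0.26 and Grik4 1.68 ± 0.25, and each range from Grik3 down overlapped the next. Length here was the union of annotated exons. With the longest transcript in its place, Grik1 came above Grik3 in L4 (10.5 and 7.57) and in L2-3 (5.98 and 3.92), with overlapping ranges.

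The make-up of the kainate receptor RNA shifted with depth in the cortex. Of the summed CPM per kilobase of the 5 genes, Grik3 made up 28.7% ± 2.55 (SD, n = 6) in L5-6, 11.2% ± 2.12 in L4 and 7.20% ± 1.12 in L2-3. Grik5 made up 59.4% ± 1.91 in L5-6, 75.25% ± 3.02 in L4 and 80.7% ± 1.97 in L2-3, although its own level was nearly even. Ranges of the Grik3 share did not overlap between layers. Grik1 held its largest share in L4, 8.36% ± 1.62, with 4.11% ± 1.42 in L5-6 and 5.82% ± 1.52 in L2-3. The high-affinity genes Grik4 and Grik5 together held 63.3% ± 1.66 in L5-6, 77.2% ± 3.18 in L4 and 83.8% ± 1.91 in L2-3. The summed level was 82.9 ± 5.26 CPM per kilobase in L5-6, 67.8 ± 3.67 in L4 and 54.9 ± 4.75 in L2-3.

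**Figure D1:**
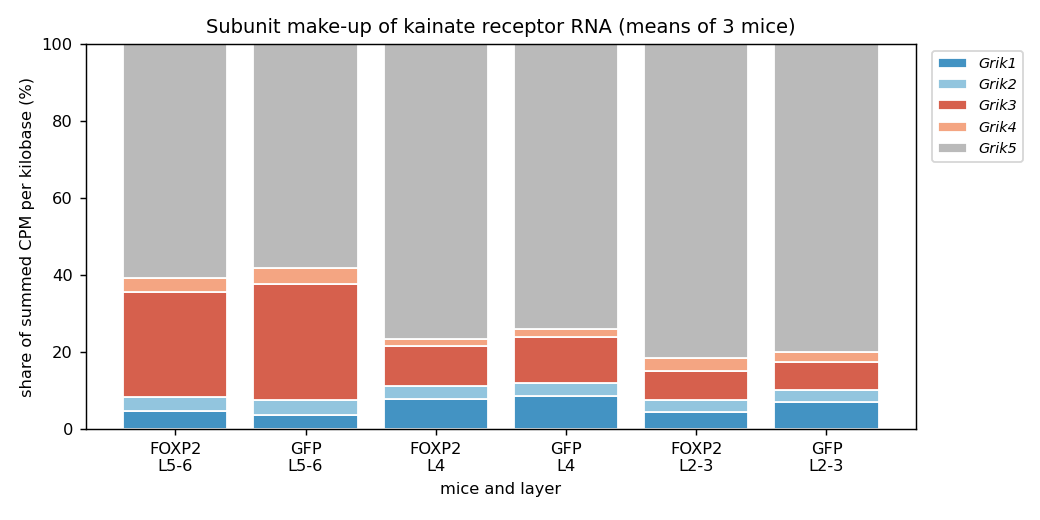
Share of each kainate receptor subunit gene in their summed CPM per kilobase, in percent, for FOXP2 and GFP mice in each layer; each bar stacks means of 3 mice. Grik5 fills most of every bar, and the Grik3 share is largest in L5-6, at 27.3% in FOXP2 mice and 30.15% in GFP mice.

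**Figure D2:**
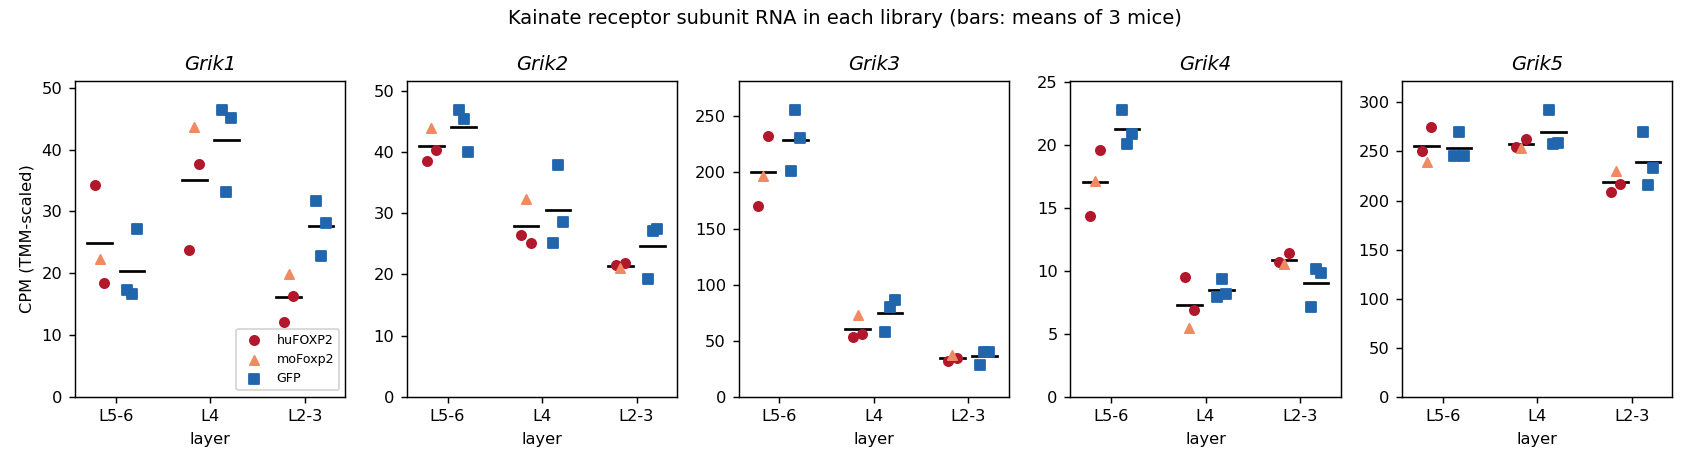
CPM of each member in each of the 18 libraries, by layer; circles are huFOXP2, triangles moFoxp2 and squares GFP mice, and horizontal bars are means of 3 mice. Grik3 lies between 170.5 and 255.9 CPM in L5-6 and at most at 39.97 CPM in L2-3, the means of Grik1 are highest in L4, and Grik5 is nearly level.

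Layers were compared within mice, over all 6 animals, in 1 edgeR quasi-likelihood fit with the mouse as a block. Differences are log2 folds of levels with their SE. L5-6 against L2-3 had 4 of 5 members higher past an adjusted p of 0.05 and 0 lower. Over all 15952 genes tested, 21.6% were called higher, 21.9% lower and 43.5% in either direction. L4 against L2-3 also had 4 of 5 higher and 0 lower (20.5% of all genes higher, 21.3% lower, 41.7% either way), and L5-6 against L4 had 3 higher and 1 lower (21.9% higher, 19.7% lower, 41.6% either way). The member medians were 0.89, 0.34 and 0.55 on the log2 scale in these comparisons, against 0.00, 0.04 and 0.01 over all genes. The dissected layers are mixtures, so a lower level can come from fewer cells of a type or from less RNA per cell, which cannot be told apart here.

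Grik3, which encodes GluK3, had the steepest gradient. It had a lowest, median and highest level of 170.5, 215.8 and 255.9 CPM in L5-6, of 53.6, 65.5 and 86.7 CPM in L4, and of 28.3, 35.8 and 39.97 CPM in L2-3. The layers did not overlap, and each mouse had the same order. The L5-6 level was 6.10-fold that of L2-3 (log2 fold 2.61 ± 0.07, edgeR adjusted p = 9.61e-11), which was the smallest p of the 15952 genes, while by fold it ranked 79. L5-6 was 3.19-fold L4 (1.67 ± 0.07, edgeR adjusted p = 1.24e-08) and L4 was 1.91-fold L2-3 (0.94 ± 0.07, edgeR adjusted p = 4.51e-07). Layer 6 markers moved with it, 10 of 10 being higher in L5-6 than in L2-3 with a median log2 difference of 2.47, as did 8 of 10 oligodendrocyte markers, and meningeal markers moved the other way, 8 of 8 being lower. Their part in the result was not tested. Without GFP mouse 1, whose glial markers were high, the L5-6 to L2-3 difference was 2.55 ± 0.08 for Grik3, 0.77 for Grik2 and 0.82 for Grik4, all past the threshold.

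Grik2, which encodes GluK2, followed the same order with a smaller slope. Its lowest, median and highest levels were 38.5, 42.2 and 46.9 CPM in L5-6, 25.2, 27.5 and 37.8 CPM in L4, and 19.3, 21.6 and 27.4 CPM in L2-3. L5-6 lay above both other layers in every library, and L4 overlapped L2-3. The log2 differences were 0.89 ± 0.09 for L5-6 against L2-3 (edgeR adjusted p = 2.6e-06), 0.55 ± 0.09 for L5-6 against L4 (0.000335) and 0.34 ± 0.09 for L4 against L2-3 (0.00855). The last no longer passed without the moFoxp2 mouse (0.28 ± 0.10, edgeR adjusted p = 0.0594).

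Grik1, which encodes GluK1, instead had its highest mean level in L4. It had a lowest, median and highest level of 16.6, 20.3 and 34.2 CPM in L5-6, of 23.8, 40.6 and 46.5 CPM in L4, and of 12.05, 21.4 and 31.7 CPM in L2-3. The ranges overlapped between layers, yet within each of the 6 mice L4 was above L2-3. L4 exceeded L2-3 by 0.86 ± 0.17 (edgeR adjusted p = 0.00121), and L5-6 fell below L4 by a log2 difference of -0.74 ± 0.17 (edgeR adjusted p = 0.00374), in 5 of 6 mice. Neither set of mice, read from the same fit, passed in both comparisons. L4 against L2-3 was 0.58 ± 0.24 (edgeR adjusted p = 0.142) in GFP mice, and L5-6 against L4 was -0.46 ± 0.25 (0.218) in FOXP2 mice. In each set the other of these comparisons passed. L5-6 against L2-3 was 0.11 ± 0.18 (edgeR adjusted p = 0.633). That sign turned without huFOXP2 mouse 1 (-0.14 ± 0.11, edgeR adjusted p = 0.33) and in the GFP mice of the same fit (-0.44 ± 0.24, edgeR adjusted p = 0.188). Interneuron markers, a cell type in which Grik1 is known to be expressed, had 5 of 12 higher and 1 lower past the threshold in L4 against L2-3. Of them 11 of 12 were above 0 (55% of all genes), with a median of 0.21. Layer 4 markers had 4 of 6 higher and 1 lower, beside 20.5% of all genes higher and 21.3% lower. In L5-6 against L4, interneuron markers had 3 higher and 5 lower, with 6 of 12 above 0 and a median of 0.03. Layer 4 markers had 0 higher and 3 lower there, beside 21.9% of all genes higher and 19.7% lower. Their part in the Grik1 difference was not tested.

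Grik4, which encodes the high-affinity subunit GluK4, had its highest levels in L5-6. Its lowest, median and highest levels were 14.4, 19.9 and 22.8 CPM in L5-6, 5.50, 8.05 and 9.53 CPM in L4, and 7.14, 10.4 and 11.4 CPM in L2-3. Every L5-6 library lay above every library of the other layers. L5-6 exceeded L2-3 by 0.94 ± 0.12 (edgeR adjusted p = 2.31e-05) and L4 by 1.27 ± 0.13 (edgeR adjusted p = 5.28e-06), and its mean was lowest in L4. L4 against L2-3 was -0.33 ± 0.13 (edgeR adjusted p = 0.0554) and passed the threshold without GFP mouse 1 (-0.42 ± 0.13, 0.0182) or without huFOXP2 mouse 1 (-0.46 ± 0.12, 0.00963). It moved farther from the threshold without GFP mouse 2 (-0.31, edgeR adjusted p = 0.127) or GFP mouse 3 (-0.28, 0.194). The same held without the moFoxp2 mouse (-0.26, edgeR adjusted p = 0.185) or huFOXP2 mouse 2 (-0.29, 0.158).

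Grik5, which encodes the high-affinity subunit GluK5, differed little between layers. Its lowest, median and highest levels were 239.7, 248.3 and 275.1 CPM in L5-6, 253.5, 258.0 and 292.5 CPM in L4, and 208.9, 223.4 and 269.5 CPM in L2-3. The ranges overlapped between all layers. L4 exceeded L2-3 by 0.20 ± 0.06 (edgeR adjusted p = 0.0112), in 6 of 6 mice, but not past the threshold without huFOXP2 mouse 1 (0.19 ± 0.07, edgeR adjusted p = 0.0572). L5-6 exceeded L2-3 by 0.16 ± 0.06 (edgeR adjusted p = 0.04), in 5 of 6 mice. This difference did not pass without GFP mouse 2 (0.11 ± 0.06, 0.155), GFP mouse 3 (0.16 ± 0.07, 0.109), huFOXP2 mouse 1 (0.15 ± 0.07, 0.134) or huFOXP2 mouse 2 (0.12 ± 0.07, 0.182). L5-6 against L4 was -0.05 ± 0.06 (edgeR adjusted p = 0.542).

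Libraries of separate layers did not overlap, L5-6 being above, for Grik2, Grik3 and Grik4 against L2-3 (5.09% of all genes) and for the same genes against L4 (5.27%). L4 lay wholly above L2-3 for Grik3 alone (3.22%). No member lay wholly below in L5-6 against L2-3 (6.75% of all genes), L4 against L2-3 (7.98%) or L5-6 against L4 (5.25%).

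**Figure D3:**
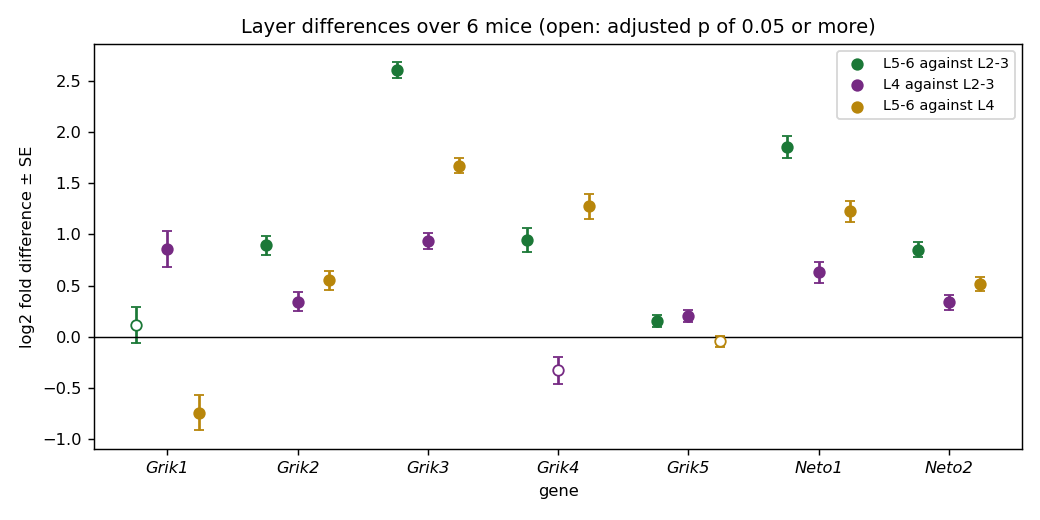
Log2 fold differences between layers over 6 mice, with SE bars, for the 5 members and the auxiliary subunit genes Neto1 and Neto2; open circles have an adjusted p of 0.05 or more. Grik3 and Neto1 have the largest L5-6 to L2-3 differences, 2.61 and 1.85, and Grik1 is the member below 0 for L5-6 against L4 past the threshold.

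The layer differences of FOXP2 mice and of GFP mice, 3 mice each, were also read from the same fit. Their SE and p-values therefore rest on a spread shared by all 18 libraries, and neither set was fitted separately. In FOXP2 mice, L5-6 against L2-3 had 4 members higher and 0 lower (37.5% of all genes called), L4 against L2-3 had 4 higher and 1 lower (40.4%), and L5-6 against L4 had 3 higher and 0 lower (15.4%). In GFP mice these counts were 3 and 0 (30.2%), 1 and 0 (10.6%), and 3 and 1 (31%). The member lower in L4 than in L2-3 in FOXP2 mice was Grik4 (-0.57 ± 0.19, edgeR adjusted p = 0.0247), which had -0.09 ± 0.18 (0.807) in GFP mice. The member lower in L5-6 than in L4 in GFP mice was Grik1 (-1.03 ± 0.24, edgeR adjusted p = 0.00639), which had -0.46 ± 0.25 (0.218) in FOXP2 mice. Grik3 passed in every one of these comparisons in both sets of mice, and Grik2 in all but L4 against L2-3 in GFP mice.

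Of 18 listed genes for proteins that accompany or modify kainate receptors, 17 were tested. In L5-6 against L2-3, 7 were higher and 0 lower, with a median log2 difference of 0.11, beside 21.6% of all genes higher and 43.5% called either way. In L4 against L2-3, 10 were higher and 0 lower (median 0.21), beside 20.5% of all genes higher and 41.7% either way. In L5-6 against L4 there were 5 higher and 5 lower (median 0.02), beside 41.6% of all genes called either way. Klhl17 was not analysed here. The auxiliary subunit genes had the smallest p in both comparisons of L5-6.

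Neto1, for the auxiliary subunit NETO1, had a lowest, median and highest level of 96.0, 106.6 and 122.9 CPM in L5-6, of 27.5, 48.9 and 58.9 CPM in L4, and of 15.3, 32.98 and 36.3 CPM in L2-3. The L5-6 range stood above both others. L5-6 exceeded L2-3 by 1.85 ± 0.11 (edgeR adjusted p = 1.07e-08), L5-6 exceeded L4 by 1.22 ± 0.10 (1.35e-06) and L4 exceeded L2-3 by 0.63 ± 0.11 (0.000333). Neto2, for NETO2, had the same order at smaller steps, 0.85 ± 0.07 (5.04e-07), 0.52 ± 0.07 (0.000106) and 0.34 ± 0.07 (0.00206) in those comparisons. Its L5-6 level averaged 235.0 ± 37.01 CPM (SD, n = 6).

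Others passed in L5-6 against L2-3, with edgeR adjusted p in brackets. Snap25, a SNARE protein of transmitter release that also binds GluK5, was higher by 0.85 ± 0.11 (edgeR adjusted p = 2.28e-05), Cask, a synaptic scaffold, by 0.40 ± 0.05 (2.3e-05), C1ql3, a secreted C1q-like protein, by 0.78 ± 0.17 (0.00234), and Pick1, a PDZ protein that binds receptor tails, by 0.30 ± 0.10 (0.0272). In L4 against L2-3, Snap25 was higher by 0.74 ± 0.11 (0.000104), the scaffold gene Dlg3 by 0.35 ± 0.06 (0.000607), the PDZ protein gene Grip1 by 0.26 ± 0.05 (0.00137) and Cask by 0.24 ± 0.05 (0.00161). Endothelial markers were lower in 7 of 7 in both these comparisons (21.9% and 21.3% of all genes lower). Astrocyte markers had 4 of 8 lower and 2 higher in L5-6 against L2-3, and 7 of 8 lower in L4 against L2-3. Oligodendrocyte markers had 8 of 10 higher in L5-6 against L2-3. The part of such cell mixture in the partner differences was not tested. In L5-6 against L4, Dlg3 (-0.36 ± 0.06, 0.000639), Dlg4, which encodes PSD-95 (-0.27 ± 0.07, 0.00951), and Cul3, a ubiquitin ligase scaffold (-0.23 ± 0.05, 0.00406), were lower, while the scaffold gene Dlg1 was higher (0.25 ± 0.06, 0.00461). 

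The genes whose pattern was most like each member were read from the Pearson correlation of log2(CPM + 1), centred within each mouse, over 18 libraries, among 11282 genes. The points share mice and fall by layer, so the values describe layer profiles. Grik3 was closest to Nr4a3 (r = 0.996), a nuclear receptor gene, Kcna1 (0.996), a potassium channel gene, and Brinp3 (0.993). Grik2 was closest to Kndc1 (0.981), Xpr1 (0.976) and Paip2b (0.976), Grik1 to Fgf9 (0.979), Susd5 (0.974) and Grem1 (0.967), Grik4 to Inava (0.980), B3gat2 (0.979) and Hap1 (0.979), and Grik5 to Sra1 (0.971), Tmem38a (0.965) and Faim2 (0.964). Among the members, Grik2 and Grik3 were closest to each other (r = 0.957), Grik4 was nearer to Grik3 (0.771) and Grik2 (0.732), and Grik1 and Grik4 ran against each other (-0.652).

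For each layer, 3 FOXP2 mice were set against 3 GFP mice. The edgeR test called 0 of 5 members in L2-3 (0.0722% of 15241 genes were called), 0 in L4 (0.0275% of 14544) and 0 in L5-6 (0.0196% of 15330). At an unadjusted p under 0.05 there was 1 member in L2-3, Grik1 (15.8% of all genes), 0 in L4 (3.14%) and 0 in L5-6 (6.17%). DESeq2 called Grik1 in L2-3, among 755 genes in all. The member medians were -0.14 in L2-3, -0.21 in L4 and -0.12 in L5-6 on the log2 scale, against -0.01, 0.00 and -0.01 over all genes.

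Grik1 in L2-3 had 12.05 and 16.3 CPM in the huFOXP2 mice and 19.95 CPM in the moFoxp2 mouse, against 31.7, 22.8 and 28.2 CPM in GFP mice. Every FOXP2 library lay below every GFP library, as for 8.18% of all genes. The log2 difference was -0.79 ± 0.21 (edgeR adjusted p = 0.129), and over leaving out each mouse in turn it ran from -0.98 to -0.62 with an adjusted p of 0.126 to 0.413. It passed by DESeq2 (-0.80 ± 0.23, adjusted p = 0.0146), which called 755 genes in this layer, against 11 in the main fit. It also passed by edgeR with no filter on low counts (-0.81 ± 0.18, adjusted p = 0.00451), a fit with a smaller SE that called 865 genes. In the same libraries layer 2-3 markers summed to 1166 to 1307 CPM in FOXP2 mice and 1616 to 1726 CPM in GFP mice, and layer 4 markers to 180.9 to 188.2 CPM in FOXP2 mice and 261.2 to 346.0 CPM in GFP mice. Meningeal markers summed to 1427 to 2105 CPM in FOXP2 mice and 398.9 to 1209 CPM in GFP mice. Interneuron markers summed to 357.8 to 446.1 CPM in FOXP2 mice and 273.8 to 328.1 CPM in GFP mice. Of these, 11 of 11 tested markers were above 0 (48.4% of all genes) and 0 past the threshold. The part of layer, meningeal and interneuron markers in the Grik1 difference was not tested.

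No other difference of a member had an unadjusted p under 0.05. In L4, Grik1 had 23.8 and 37.6 CPM in the huFOXP2 mice and 43.7 CPM in the moFoxp2 mouse, against 46.5, 33.1 and 45.2 CPM in GFP mice (-0.25 ± 0.22). In L5-6 it had 34.2 and 18.4 CPM in the huFOXP2 mice and 22.2 CPM in the moFoxp2 mouse, against 17.3, 16.6 and 27.2 CPM in GFP mice (0.28 ± 0.27, edgeR adjusted p = 0.753). Both pairs of groups overlapped, and without huFOXP2 mouse 1 the L5-6 difference was -0.01.

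Grik4 in L5-6 had 14.4 and 19.65 CPM in the huFOXP2 mice and 17.2 CPM in the moFoxp2 mouse, against 22.8, 20.1 and 20.9 CPM in GFP mice. All FOXP2 libraries lay below all GFP libraries, as for 6.8% of all genes, and the log2 difference was -0.32 ± 0.14 (edgeR adjusted p = 0.713). In L2-3 Grik4 had 10.7 and 11.4 CPM in the huFOXP2 mice and 10.6 CPM in the moFoxp2 mouse, against 7.14, 10.2 and 9.87 CPM in GFP mice. There all FOXP2 libraries lay above, as for 12% of all genes (0.26 ± 0.18, edgeR adjusted p = 0.526), and without GFP mouse 1, the lowest, the difference was 0.12 ± 0.14. In L4 no member had FOXP2 libraries wholly above (3.78% of all genes) or wholly below GFP libraries (4.14%), and in L5-6 none had them wholly above (6.72%).

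Grik3 in L5-6 had 170.5 and 232.5 CPM in the huFOXP2 mice and 197.0 CPM in the moFoxp2 mouse, against 201.4, 255.9 and 230.3 CPM in GFP mice, with overlapping groups (-0.21 ± 0.14, edgeR adjusted p = 0.714). In L4 the difference of Grik3 was -0.31 ± 0.17 and in L2-3 -0.07 ± 0.15. Grik2 differed by -0.12 ± 0.11 in L5-6, -0.13 ± 0.17 in L4 and -0.21 ± 0.15 in L2-3, and Grik5 by 0.00 ± 0.10, -0.07 ± 0.09 and -0.14 ± 0.11 in those layers. For Grik5 in L5-6 the 95% interval, from the SE and the normal distribution, ran from -0.19 to 0.19, and for Grik2 in L5-6 from -0.32 to 0.09. Such intervals are narrower than the test with few mice allows. For Grik4 in L5-6 it ran from -0.61 to -0.04, although the unadjusted edgeR p was 0.0547. Of the listed partner genes, 0 of 17 passed in L2-3, 0 of 16 in L4 and 0 of 17 in L5-6.

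**Figure D4:**
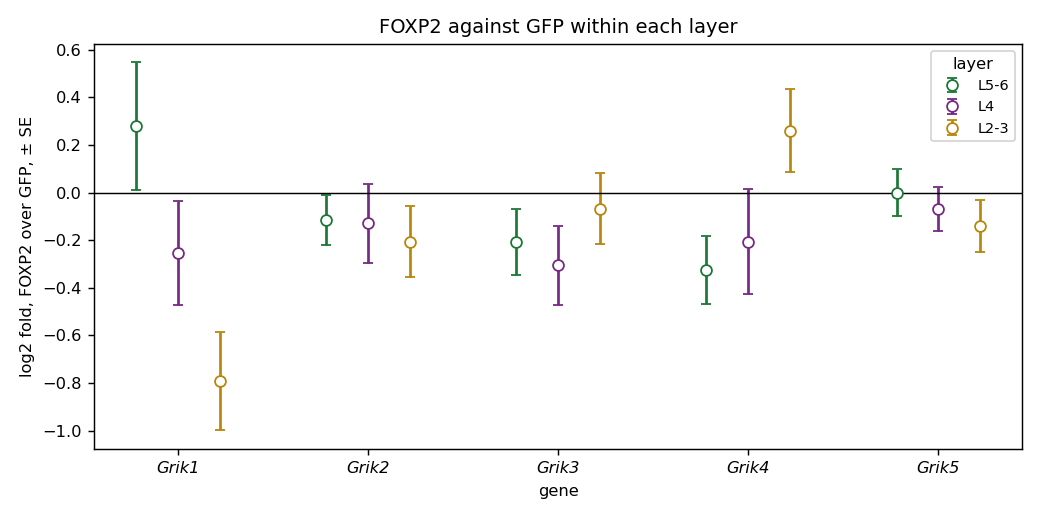
Log2 fold of FOXP2 over GFP mice for each member in each layer, with SE bars (3 mice against 3). None of the 15 values passed an adjusted p of 0.05, and Grik1 in L2-3, at -0.79, lies farthest from 0.

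Whether the FOXP2 difference itself depended on the layer was tested within mice. For L5-6 minus L2-3, 1 of 5 members passed, Grik1, which was higher (6.75% of all genes higher, 15.4% either way). The count of all genes called was 2457, against 1 without huFOXP2 mouse 1 and 0 with no mouse block. The log2 ratio of L5-6 to L2-3 for Grik1 was 1.51 and 0.17 in the huFOXP2 mice and 0.16 in the moFoxp2 mouse, against -0.88, -0.46 and -0.05 in GFP mice. All 3 FOXP2 mice thus lay above 0 and all 3 GFP mice below it. The share of all genes whose ratios split between the groups was not counted. The fitted difference was 1.11 ± 0.35 (edgeR adjusted p = 0.0469). It kept its sign but lost the threshold in 8 of 10 alternatives, whose values ran from 0.61 to 1.36. It was 0.61 (edgeR adjusted p = 0.126) without huFOXP2 mouse 1, 1.34 (0.0514) when huFOXP2 mouse 2 was left out and 1.36 (0.0561) when the moFoxp2 mouse was. Leaving out GFP mice 1, 2 and 3 in turn gave 0.90 (0.142), 1.12 (0.0717) and 1.33 (0.0647). The L5-6 library of huFOXP2 mouse 1 had the most Grik1 of its layer, 34.2 CPM, and also the highest summed layer 2-3 markers (919.8 CPM) and layer 4 markers (329.9 CPM) and the lowest layer 6 markers (713.1 CPM) of the L5-6 libraries. All 7 layer 2-3 markers were higher past the threshold in this same comparison, with a median of 0.92. Their part in the Grik1 value was not tested.

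Grik4 went the other way. Its log2 ratio of L5-6 to L2-3 was 0.42 and 0.78 in the huFOXP2 mice and 0.70 in the moFoxp2 mouse, against 1.68, 0.98 and 1.08 in GFP mice. The fitted difference, -0.59 ± 0.24, missed the threshold (edgeR adjusted p = 0.11). It passed with no filter on low counts (-0.58 ± 0.20, edgeR adjusted p = 0.0398), a fit with a smaller SE that called 3550 genes in all. Grik2 (0.08 ± 0.18), Grik3 (-0.15 ± 0.14) and Grik5 (0.13 ± 0.11) had adjusted p of 0.8, 0.49 and 0.451 in edgeR. For Grik3 the 95% interval, again from the normal distribution and so too narrow, ran from -0.44 to 0.13. The layer difference was 2.53 ± 0.11 in FOXP2 mice and 2.69 ± 0.11 in GFP mice. Of the partner genes, Snap25 (0.88 ± 0.22, edgeR adjusted p = 0.0194) and Dlg3 (0.58 ± 0.13, 0.0147) were higher in a comparison whose 2457 calls over all genes fell to 1 without huFOXP2 mouse 1, and Neto1 had -0.43 ± 0.21 (0.17).

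For L4 minus L2-3 the edgeR test called 0 members and 0 genes in all, with 0 members at an unadjusted p under 0.05 (17.7% of all genes) and 0 members, but 527 genes, by DESeq2. With no filter on low counts edgeR called Grik1 there (0.56 ± 0.17, adjusted p = 0.0237) and 1326 genes in all, against 0.55 ± 0.35 (0.422) with the filter. For L5-6 minus L4 it called 0 members, with 0 at an unadjusted p under 0.05 (5.59% of all genes) and 0 by DESeq2, and 1 gene in all, Foxp2 (0.00627%).

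**Figure D5:**
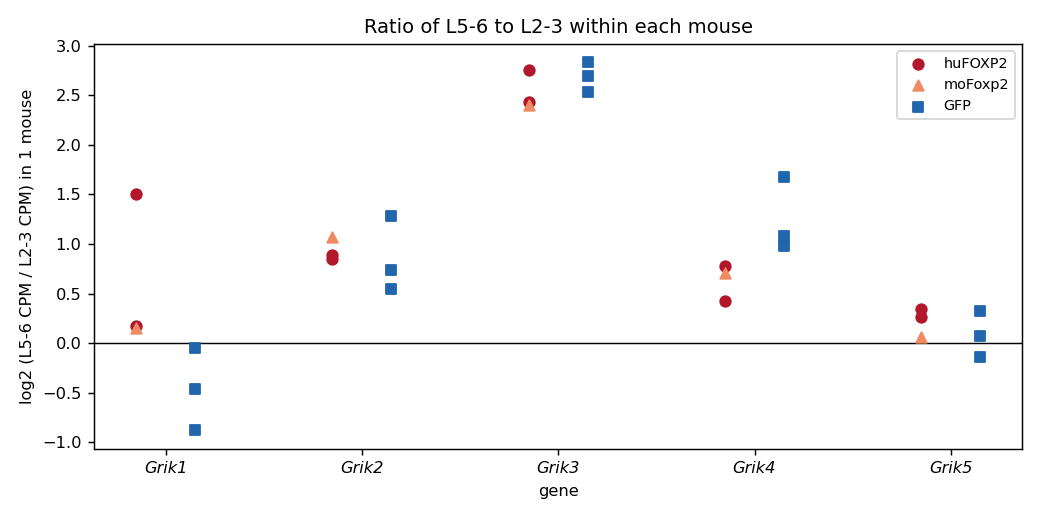
Log2 ratio of the L5-6 to the L2-3 level within each mouse for each member; circles are huFOXP2, triangles moFoxp2 and squares GFP mice. Grik3 lies between 2.40 and 2.83 in every mouse, Grik1 lies above 0 in FOXP2 mice and below 0 in GFP mice, and the Grik4 ratios of FOXP2 mice, up to 0.78, lie below those of GFP mice, from 0.98. How many of all genes split in this way was not counted.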

How the data were processed

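Total RNA of each dissected layer was made into Illumina TruSeq libraries, per the labels. The authors deposited raw read counts per gene with no normalization; STAR, HTSeq and mm10 are named in the submitters' processing notes, and the sources used here give neither versions nor gene models nor the strand setting. Lengths and positions came from GENCODE M21.

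Counts were tested with edgeR 4.0.16 (quasi-likelihood, TMM, filterByExpr with minimum count 10 and minimum total 15) in R 4.3.3 after tests on simulated data, with Benjamini-Hochberg adjustment over all genes tested and a threshold of 0.05. Standard errors were the log2 fold divided by the square root of F. Groups were taken from the sample titles. Layers were compared over all 18 libraries with the mouse as a block. Tissue of each layer was pooled per mouse, per the labels, libraries of a construct with 1 replicate number were taken as 1 mouse, and their deviations from group means correlated at 0.262 to 0.698 in 18 of 18 pairs over 15952 genes. FOXP2 and GFP mice were compared over the 6 libraries of a layer. P-values measure the spread between these mice.

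Alternatives were RLE size factors, no filter, DESeq2 1.42.0, fits without or with a replicate block, a fit over 18 libraries, other gene lengths, and each mouse left out. The layer differences of GFP or FOXP2 mice were also set beside them, read from the main fit and not from separate fits. Named genes were the 5 members, Foxp2, Neto1, Neto2, up to 6 partner genes of smallest p per comparison, and 3 genes of most like pattern per member with a mean of at least 5 CPM. The members and lists were chosen with earlier results of these data known.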

Additional observations from a re-analysis of the deposited data

Results flagged for a closer look

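In 30 sets of 6 values, each a member's CPM in a layer or its log2 ratio between layers over the 6 mice, 3 had a mouse set apart from the others, its gap to the nearest divided by the range being over Dixon's critical value of 0.625; chance alone flags about 1 set in 20. For Grik1 the log2 ratio of L5-6 to L4 was highest in huFOXP2 mouse 1, at 0.525, the only mouse above 0, with a gap of 0.643 of the range. Grik4 in L2-3 was lowest in GFP mouse 1, at 7.14 CPM, with a gap of 0.636. Grik5 in L4 was highest in GFP mouse 1, at 292.5 CPM, with a gap of 0.757.

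For Grik1 the log2 fold of FOXP2 over GFP mice was 0.28 in L5-6 and -0.79 in L2-3, of opposite sign, and the test of L5-6 minus L2-3 within mice gave 1.11 ± 0.35 (edgeR adjusted p = 0.0469). In the ratio of L5-6 to L2-3, 3 of 3 FOXP2 mice and 0 of 3 GFP mice lay above 0, a split whose share over all genes was not counted. The call was lost in 8 of 10 alternatives, among them leaving out any 1 mouse, and the value was 0.61 (edgeR adjusted p = 0.126) without huFOXP2 mouse 1.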

How the results depend on the processing

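Under all 12 alternatives Grik2, Grik3 and Grik4 stayed higher in L5-6 than in L2-3 and in L4, and Grik3 higher in L4 than in L2-3, past the threshold. Of the tests of members under alternatives, 459 kept direction and side of the threshold, 20 lost it, 8 gained it and 23 changed sign. With the longest transcript as length, 9 of the levels moved by over 1 SD.

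For the GFP mice of the main fit, 1683 genes were called for L4 against L2-3 (6655 in all mice). For its FOXP2 mice, 2452 were called for L5-6 against L4 (6631 in all mice). Leaving out each mouse gave 5600 to 7559 for L5-6 against L2-3, 5137 to 7268 for L4 against L2-3 and 4892 to 6251 for L5-6 against L4. For the FOXP2 difference in L5-6 minus that in L2-3 it gave 1 to 3414 (2457 in all), with 3550 with no filter and 2537 by DESeq2. For L4 minus L2-3 it gave 0 to 14 (0 in all), with 1 by RLE, 1326 with no filter and 527 by DESeq2. For L5-6 minus L4 it gave 0 to 2 (1 in all), with 255 with no filter and 11 by DESeq2. FOXP2 against GFP called 3 to 195 in L2-3 (11 in all; 195 without GFP mouse 1), with 4 by RLE, 865 with no filter, 755 by DESeq2 and 43 over 18 libraries. L4 had 3 to 6 (4 in all), 189 with no filter and 32 by DESeq2. L5-6 had 2 to 4 (3 in all), 323 with no filter, 56 by DESeq2 and 17 over 18 libraries. The cause of these differences was not tested.

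Without the mouse as a replicate block, 4032 genes were called for L5-6 against L4, and 0 for the FOXP2 difference in L5-6 minus L2-3 and in L5-6 minus L4. Grik1 then had 1.07 (adjusted p = 0.154) for the FOXP2 difference in L5-6 minus L2-3, with 1.09 (0.051) by RLE, and Grik5 an adjusted p of 0.0909 for L5-6 against L2-3. Numbers shared by GFP and huFOXP2 mice were taken as labels only. Differences of mouse 1 minus mouse 2 correlated between these constructs at -0.0668, 0.0276 and 0.0472 in L2-3, L4 and L5-6. With 1 such difference per construct and layer, these values cannot decide whether a number marks a shared batch. Mice numbered 1 and 2 gave, with the block and without pairing, 9 and 7 calls in L2-3, 69 and 5 in L4, and 45 and 2 in L5-6.

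Changes of sign were these, on the log2 scale, as ranges over leaving out each mouse. Layer differences ran from -0.14 to 0.23 for Grik1 in L5-6 against L2-3 (-0.44 in the GFP mice of the main fit) and from -0.0825 to 0.0065 for Grik5 in L5-6 against L4. FOXP2 differences between layers ran from -0.0823 to 0.27 for Grik2 in L5-6 minus L2-3 and from -0.0638 to 0.17 in L4 minus L2-3. In L5-6 minus L4 they ran from -0.13 to 0.18 for Grik2 (-0.0009 by RLE, -0.0035 by DESeq2), -0.0713 to 0.24 for Grik3, -0.28 to 0.24 for Grik4 and -0.0157 to 0.15 for Grik5. FOXP2 against GFP ran from -0.21 to 0.011 for Grik3 in L2-3, -0.24 to 0.0452 for Grik2 in L4, -0.10 to 0.0004 for Grik5 in L4, -0.0496 to 0.0494 for Grik5 in L5-6 and -0.0111 to 0.55 for Grik1 in L5-6. With 3 mice a group and 60 to 5765 counts per member and library, a FOXP2 difference that was not called cannot be taken as absent. Grik1 in L2-3, at -0.79 ± 0.21, was itself not called (edgeR adjusted p = 0.129).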
